A study of Mus musculus with 2 samples.

Results

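Ighm, the gene for the constant region of the immunoglobulin M heavy chain, was followed through 2 single-cell libraries of mouse myeloid-derived suppressor cells (MDSCs), the immature myeloid cells that restrain T cells. It is 1 of 32285 genes in the deposited tables and was found by its symbol. It was selected on the ratio of its UMI counts between these libraries, so its levels are a description and carry no test. One culture received 50 nM Selinexor, an inhibitor of the nuclear export receptor exportin 1, and the other its vehicle DMSO. Both grew with IL-6 and GM-CSF at 40 ng/mL each until day 4, were tagged with feature barcodes, sorted as live CD11b+ cells and pooled before droplet capture. CD11b, encoded by Itgam, is the integrin chain of myeloid cells, which most B cells lack. Mouse strain and the tissue of the precursors are not given in the labels. Each group holds 1 library, so no spread between cultures can be given, and the 95% intervals below cover counting error only.

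In a B cell, the heavy chain gene is assembled from variable, diversity and joining segments by the RAG recombinase. The joined exon is then spliced to the constant exons of Ighm. The chain pairs with a light chain and, in its membrane form, signals through Cd79a and Cd79b. Myeloid cells are not known for making immunoglobulin M, although the intronic enhancer of the heavy chain locus is bound by factors that they also carry, such as PU.1 and C/EBPβ. Unrearranged transcripts that start near this enhancer and run into the Ighm exons are known from haematopoietic cells.

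Ighm (ENSMUSG00000076617) lies on the minus strand of chromosome 12 in GRCm38 (mm10), at chr12:113418558-113422730. The GENCODE annotation gives it as an immunoglobulin constant gene with 2 transcripts. Ighm-202 has 6 exons and ends in the exons that anchor the chain in the membrane. Ighm-201 has 4 exons and reads on past the end of exon 4 into a short secreted tail. The deposited counts are per gene and cannot separate these forms. The 2 coding stretches in which they differ most are shown to make clear what 1 Ighm count may stand for, and both are on the minus strand. The first is exon 5 of Ighm-202 (chr12:113418953-113419068), and the second is the tail of Ighm-201 (chr12:113420870-113420928), whose opening GT in capitals is the splice donor that the membrane form uses instead.
membrane exon: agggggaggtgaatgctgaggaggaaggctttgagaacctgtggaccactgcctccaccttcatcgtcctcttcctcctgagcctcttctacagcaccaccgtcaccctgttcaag
secreted tail: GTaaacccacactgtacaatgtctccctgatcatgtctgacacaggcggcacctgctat

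After filtering, the libraries held 1967 Selinexor and 1743 DMSO cells, with 12841480 and 14222344 UMIs (unique molecular identifiers, counted molecules). Median depth differed, at 3984 UMIs and 1282 genes per Selinexor cell against 7788 UMIs and 2112 genes per DMSO cell. In each library the same tag was the most abundant one in 100% of barcodes, and 0 barcodes occurred in both. The marker sets for intermediate neutrophils, which hold granule genes such as Ltf, Camp and Ngp, summed to 152215 Selinexor and 162316 DMSO UMIs. The T cell markers summed to 17 and 16 UMIs, with 3 and 2 of 7 genes at 0.

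Ighm was far more abundant in the Selinexor library. It had 2964 UMIs in Selinexor cells and 194 UMIs in DMSO cells. As CPM, the UMIs scaled to a common library total, this came to 230.8 (222.6 to 239.3, exact Poisson) in Selinexor cells against 13.6 (11.8 to 15.7) in DMSO cells. The log2 ratio was 3.98 on the log2(CPM + 1) scale, and the plain ratio of the levels was 16.9-fold (14.6 to 19.7). Among 10393 measured genes, those with at least 50 UMIs over both libraries, this was the second highest ratio. Of these genes 213 (2.05%) were at least 2-fold higher in Selinexor cells, and the median gene stood at 0.13. With TMM or median-of-ratios factors the log2 ratio of Ighm was 3.86 or 3.84. Without cells that held Mki67 or Top2a, genes of dividing cells, the log2 ratio of Ighm was 4.91.

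The transcript was spread over many cells. At least 1 Ighm UMI was found in 950 Selinexor cells (48.3%, 46.1 to 50.5, Clopper-Pearson) and in 136 DMSO cells (7.80%, 6.59 to 9.16). At least 2 UMIs were found in 629 Selinexor and 36 DMSO cells, and at least 5 UMIs in 205 Selinexor and 2 DMSO cells. The highest count in 1 cell was 15 in Selinexor cells and 13 in DMSO cells. The tenth of Selinexor cells with most Ighm, 197 cells, held 1402 UMIs or 47.3% of the library's total. Ighm in the Selinexor library was thus unevenly distributed, but not carried by a handful of cells.

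Shares of cells depend on depth, so each cell was thinned in expectation to 1500 UMIs. The share was then 31.6% of 1275 Selinexor cells against 1.91% of 1485 DMSO cells, with 692 Selinexor and 258 DMSO cells too shallow to enter. By depth, cells with under 1000 UMIs carried Ighm in 10.6% of 322 Selinexor cells and in 0 of 96 DMSO cells (upper bound 3.77%). Between 2000 and 4000 UMIs the shares were 73.6% of Selinexor and 3.23% of DMSO cells. At 16000 UMIs or more they were 67.7% of 167 Selinexor and 11.7% of 145 DMSO cells. The Selinexor level was highest at 2000 to 4000 UMIs, with 768.5 CPM, and stood at 131.9 CPM in the deepest cells. The share was higher in Selinexor than in DMSO cells in each of the depth ranges plotted.

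**Figure D1:**
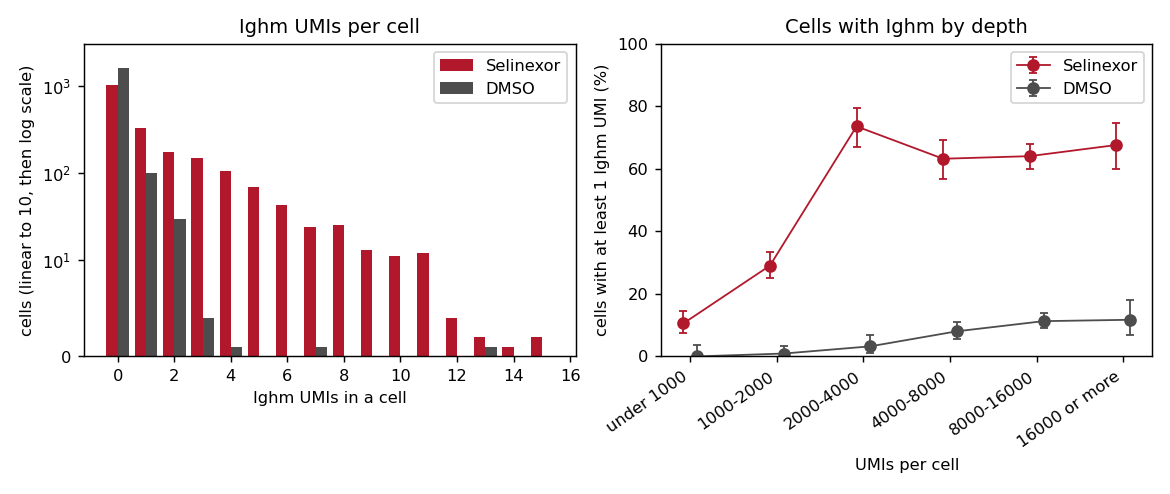
The left panel counts cells (y axis, linear to 10 and then logarithmic) by the number of Ighm UMIs they hold (x axis), for Selinexor (red) and DMSO (grey). The right panel gives the percent of cells with at least 1 Ighm UMI by range of UMIs per cell, with exact binomial 95% intervals. Selinexor cells reach 73.6% at 2000 to 4000 UMIs, and DMSO cells reach 11.7% at the highest depth.

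Cells of both libraries were clustered together without immunoglobulin genes, and clusters were named from marker sets. Ighm was carried across neutrophil-like, macrophage-like and several unnamed clusters of the Selinexor library. Its level was highest in late neutrophil-like cells, which express the granule proteases Mmp8 and Mmp9 and the chemokine receptor Cxcr2. At a coarser resolution the highest level was 469.9 CPM, in an intermediate neutrophil-like cluster. The 146 Selinexor cells of the late neutrophil-like cluster led by Slfn4 and Mmp9 had 366 Ighm UMIs or 1017 CPM (915.4 to 1127). Ighm also appeared among the 10 leading genes of that cluster, although it had no part in forming it. Leading genes were ranked over both libraries together, and the cluster held 146 Selinexor and 20 DMSO cells. A gene higher in the Selinexor library gains rank there by that alone. The late neutrophil-like cluster led by Mmp9 and Cxcl10 had 601.5 CPM (453.1 to 782.9) on 55 UMIs in 48 Selinexor cells. Its intervals do not meet those of the cluster led by Slfn4.

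The third late neutrophil-like cluster, led by Siglecg, was shallow, with a median of 1046 UMIs in 639 Selinexor cells. It had 282.7 CPM (244.9 to 324.8). Intermediate neutrophil-like cells split in their level. The cluster led by Ltf and Retnlg had 385.5 CPM (348.3 to 425.5) in 198 Selinexor cells, while the cluster led by Camp and Ncam1 had 88.4 CPM (74.1 to 104.7) in 135 Selinexor cells. Early neutrophil-like cells, led by the primary granule genes Ctsg, Mpo and Elane, had 110.5 CPM (82.5 to 144.9) in 31 Selinexor cells. That interval overlaps the one of the cluster led by Camp, so these clusters are not separated by counting error.

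An unnamed cluster led by Ch25h, Shisa4, Mrc1 and Fn1 held the largest part of the Selinexor transcripts. Its 345 cells had 1049 Ighm UMIs, or 35.4% of the total, at 248.8 CPM (234.0 to 264.3). The unnamed cluster led by Gpnmb and Ear6 stood at 242.8 CPM (218.8 to 268.8) in 221 Selinexor cells, within the interval of the previous one. The macrophage-like cluster, led by Ccl17, the MHC class II gene H2-Ab1 and the complement gene C1qa, had 180.4 CPM (148.4 to 217.3) in 50 Selinexor cells. The unnamed cluster led by Hist1h1a, Prc1 and Top2a, genes of dividing cells, had 93.8 CPM (80.1 to 109.1) in 102 Selinexor cells. The cluster led by the stefin genes Csta3 and Csta2 had 373.8 CPM (277.5 to 492.8) in only 16 Selinexor cells.

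The lowest Selinexor level was in dendritic cell-like cells, led by Ccl22, Ccl5, Ccr7 and Fscn1. They had 10 UMIs in 34 cells, or 26.1 CPM (12.5 to 48.1), and 6 of these 10 UMIs lay in 1 cell. Only 3 of the 34 cells (8.82%) had Ighm at a median depth of 11140 UMIs, against 30.5% of late neutrophil-like Selinexor cells at a median of 1114 UMIs. After thinning to 1500 UMIs, 2.44% of 33 dendritic cell-like and 63.0% of 187 late neutrophil-like Selinexor cells had Ighm. The other late neutrophil-like cells, of 833 in all, were too shallow to enter, and 115 of the 187 belong to the cluster led by Slfn4. In the cluster led by Siglecg, 53 cells entered with a share of 42.1%. Free RNA in the droplets would be expected in both kinds of cell, and its part in these shares was not tested. The DMSO dendritic cell-like cells, 5 in number, had 0 UMIs, and 3 counts there would be 48.6 CPM, so no ratio is given.

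The DMSO library had another order. Early neutrophil-like DMSO cells stood highest among clusters of at least 20 cells, with 39 UMIs in 79 cells or 33.9 CPM (24.1 to 46.3). The intermediate neutrophil-like cluster led by Camp followed with 24.7 CPM (17.4 to 33.8), which overlaps it. Of its 38 DMSO UMIs, 7 lay in a single cell that also held light chain UMIs. The 498 late neutrophil-like DMSO cells had 6 UMIs in all, or 4.40 CPM (1.61 to 9.57), against 621 UMIs and 535.9 CPM (494.6 to 579.8) in 833 such Selinexor cells. Late neutrophil-like cells thus had the highest level of any named class in Selinexor cells and, among classes with at least 20 DMSO cells, the lowest in DMSO cells. A small cluster led by the basophil genes Mcpt8 and Prss34 had 4 UMIs in 2 Selinexor cells and 10 UMIs in 9 DMSO cells. Some of these DMSO cells also held the plasmacytoid dendritic cell gene Siglech.

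**Figure D2:**
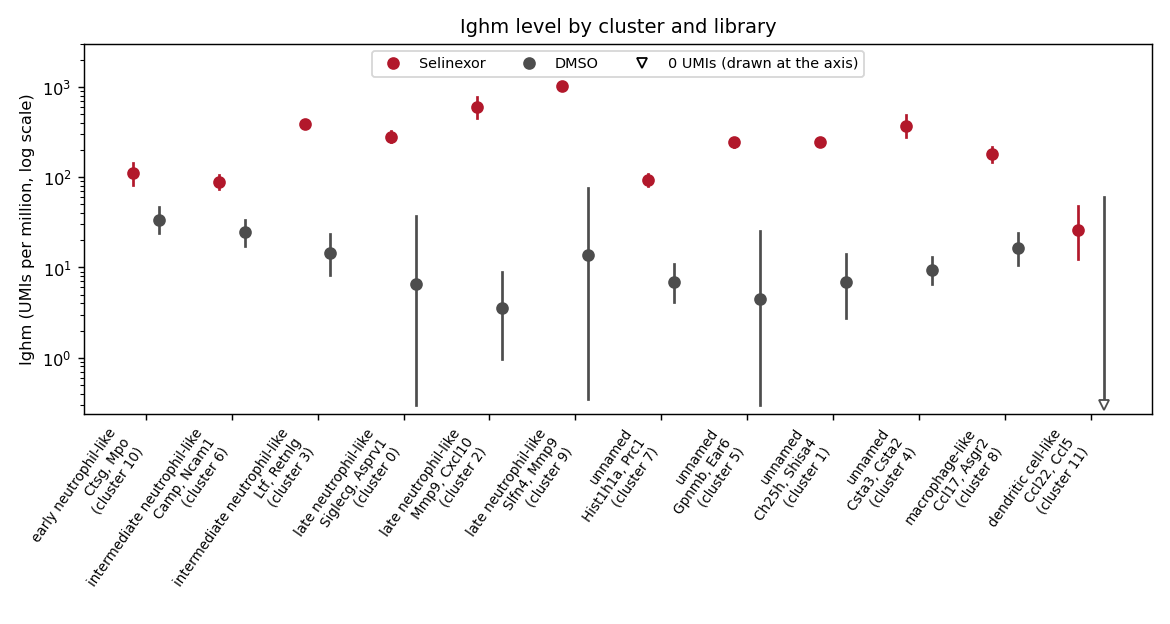
Points give the Ighm level in CPM (logarithmic y axis) for each cluster with at least 20 cells in 1 library, in Selinexor (red) and DMSO (grey), with exact Poisson 95% intervals. The Selinexor points run from 26.1 to 1017, and the DMSO points of the neutrophil-like clusters from 3.51 to 33.9.

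The ratio of Selinexor over DMSO therefore differed between clusters. It was 3.26-fold (2.11 to 5.07) in early neutrophil-like cells and 3.59-fold (2.48 to 5.29) in the intermediate cluster led by Camp. The intermediate cluster led by Ltf and Retnlg reached 27.0-fold (16.4 to 47.7). In the late cluster led by Mmp9 and Cxcl10 it was 171.5-fold (63.3 to 652), on 55 Selinexor and 4 DMSO UMIs. Other clusters rest on 1 DMSO UMI each, namely the late clusters led by Slfn4, at 74.5-fold (13.3 to 2949), and by Siglecg, at 42.8-fold (7.60 to 1699), and the cluster led by Gpnmb, at 54.0-fold (9.63 to 2138). The cluster led by Ch25h stood at 36.3-fold (17.6 to 90.6), the cluster led by Csta3 at 39.7-fold (25.2 to 63.3), the cluster led by Hist1h1a at 13.5-fold (8.26 to 23.3) and the macrophage-like cluster at 11.0-fold (7.07 to 17.7). Of the 25 DMSO UMIs in the macrophage-like cluster, 13 lay in a single cell that also held 10 light chain UMIs. In the cluster led by Camp, 7 of 38 DMSO UMIs lay in a single cell with 14 light chain UMIs. Both cells lower the ratios of their clusters.

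Ighm was higher in Selinexor cells in 10 of 10 clusters with at least 20 cells in each library. The same held for 6 of 6, 14 of 14 and 11 of 11 shared clusters at a coarser resolution, at a finer one and with expression centred per library. With the clusters given equal cell shares in both libraries, the levels were 321.8 CPM in Selinexor and 10.4 CPM in DMSO cells, a log2 ratio of 4.83. At the finer resolution they were 290.9 CPM and 16.0 CPM, a log2 ratio of 4.10. Of the 10393 measured genes, 6 (0.0577%) were at least 2-fold higher in each of the 10 shared clusters. Arrdc3, an arrestin-domain adaptor, had a smallest log2 ratio of 1.93 over these clusters and Ighm one of 1.68. The others were the nucleosome-binding gene Hmgn1 at 1.36, the ubiquitin ligase gene Trim6 at 1.12, the monocarboxylate transporter gene Slc16a6 at 1.09 and Xpo1 at 1.01.

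Xpo1 encodes exportin 1, the protein that Selinexor binds. It had 2568 UMIs in Selinexor cells and 944 UMIs in DMSO cells, a log2 ratio of 1.58 (1.48 to 1.70). Within the Selinexor library it differed little between cells with and without Ighm. The log2 ratio of Ighm-positive over Ighm-negative cells of like depth was 0.16 (0.04 to 0.29) for Xpo1. In cells with 1, 2 to 3 and 4 or more Ighm UMIs it was -0.07, 0.08 and 0.38.

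Other immunoglobulin genes did not accompany Ighm. Ighd, which encodes the delta chain, lies 2234 bp from Ighm and is spliced from the same precursor in B cells. It had 1 UMI in Selinexor cells and 5 UMIs in DMSO cells. The constant genes Ighg1, Ighg2b, Ighg2c, Ighg3, Ighe and Igha had 0 UMIs in both libraries. The kappa light chain Igkc had 3 Selinexor and 25 DMSO UMIs. The lambda genes Iglc1, Iglc2 and Iglc3 had 1, 0 and 5 UMIs in Selinexor cells and 3, 8 and 13 UMIs in DMSO cells, and Iglc4 had 0 in both. Light chain UMIs were thus fewer in the library with more Ighm, but they lay in only 3 Selinexor and 7 DMSO cells.

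Of the 379 variable, diversity and joining segments in the tables, 1 had any UMI. Igkv14-111 had 1 UMI in each library, and the 185 heavy chain variable genes had 0. The labels do not say which transcript end was read, so these zeros do not show whether Ighm transcripts carried a variable exon. Rag1 and Rag2, the recombinase genes, had 0 UMIs in both libraries. Dntt, which adds bases at the joints, had 2 Selinexor UMIs and 0 DMSO UMIs.

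Most genes that define B cells were at or near 0. Ms4a1, which encodes CD20, had 0 Selinexor and 5 DMSO UMIs. The B cell regulator Pax5 had 1 Selinexor and 2 DMSO UMIs, and Cd79a had 5 Selinexor and 17 DMSO UMIs. Cd79b had 28 UMIs in Selinexor cells and 50 in DMSO cells, and Ebf1, an early B cell factor, had 28 and 25 UMIs. The adaptor gene Blnk went the other way, with 33 Selinexor and 13 DMSO UMIs and a log2 ratio of 0.90 (0.53 to 2.54). The 8 B cell markers summed to 66 Selinexor and 99 DMSO UMIs. Of these, 46 UMIs lay in Ighm-positive Selinexor cells and 57 in Ighm-positive DMSO cells. From Ighm-negative cells of like depth, 30.2 and 5.71 UMIs were expected. The log2 ratio was 0.50 in Selinexor cells, with an interval that spans 0 (-0.21 to 1.43), and 3.02 (2.73 to 3.91) in DMSO cells.

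The plasma cell gene Jchain, whose product joins secreted immunoglobulin M into pentamers, had 0 UMIs in both libraries, and its partner in assembly Mzb1 had 0 Selinexor and 3 DMSO UMIs. Of the 7 plasma cell genes 3 were measured. Among these, 1 was at least 1.5-fold higher in Selinexor cells and 0 lower by that margin, where 9.83% and 3.88% of all measured genes were. Prdm1 had 62 Selinexor and 56 DMSO UMIs, and Xbp1 had 2057 and 2301. The higher gene was Sdc1, which encodes syndecan-1, with 195 Selinexor and 57 DMSO UMIs and a log2 ratio of 1.69. It was among the leading genes of the cluster headed by Ch25h, and between Ighm-positive and Ighm-negative Selinexor cells its log2 ratio was -0.09 (-0.52 to 0.34). The surrogate light chain genes Vpreb1 and Igll1, used by precursor B cells, had 3 and 1 UMIs in Selinexor cells and 0 in DMSO cells. Among receptors for immunoglobulin M, Fcmr had 13 Selinexor and 8 DMSO UMIs, and Fcamr and Pigr had 0 in both. Cd5l, listed beside them but not such a receptor, also had 0 in both.

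**Figure D3:**
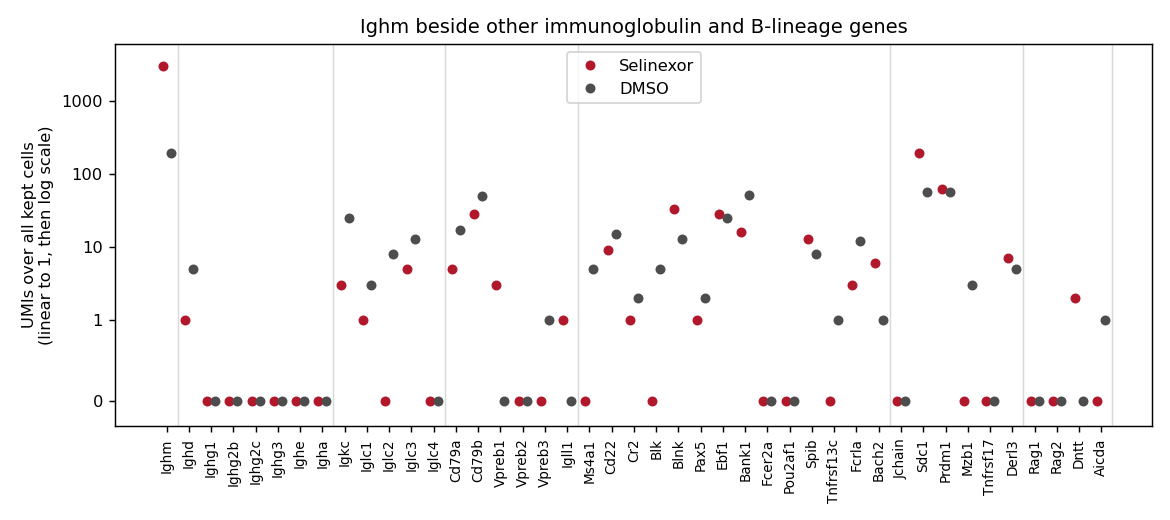
Points give the UMIs summed over kept cells (y axis, linear to 1 and then logarithmic) for Ighm and for the heavy chain, light chain, receptor, B cell, plasma cell and recombination genes, in Selinexor (red) and DMSO (grey). Cd24a and Xbp1, which myeloid cells also express, are left out. Ighm stands at 2964 and 194, and Sdc1 is the only other gene above 100.

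Single cells gave the same picture for Selinexor and another for a few DMSO cells. The 5 Selinexor cells with most Ighm had 15, 15, 14, 13 and 13 UMIs of it and 0 UMIs of any light chain, Cd79a, Cd79b or Ms4a1. They had 6, 5, 8, 8 and 18 UMIs of Itgam. The DMSO cell with most Ighm had 13 UMIs of it, 10 light chain UMIs, 4 of Ighd, 3 of Cd79a and 3 of Ms4a1, beside 9 UMIs of Itgam. The next DMSO cell had 7 Ighm UMIs with 14 light chain, 10 Cd79a and 10 Cd79b UMIs. The third had 4 Ighm UMIs with 14 light chain UMIs and 7 of Siglech. Light chain UMIs thus stood beside Ighm in 0 of the 5 highest Selinexor cells and in 3 of the 5 highest DMSO cells.

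Cells with a light chain, Ighd, Cd79a, Ms4a1, Pax5 or Blk transcript numbered 10 in the Selinexor and 13 in the DMSO library. They held 21 Ighm UMIs (0.709%) in Selinexor cells and 27 Ighm UMIs (13.9%) in DMSO cells. Without them the log2 ratio was 4.17 and the levels differed 19.4-fold. Cd79b, outside that list, was found in 27 Selinexor cells, 23 of them with Ighm, and in 36 DMSO cells, 14 of them with Ighm. Of all cells, 48.3% and 7.80% had Ighm, and depth was not matched here. Cells with Cd79b held 68 Ighm UMIs (2.29%) in the Selinexor and 36 (18.6%) in the DMSO library. The levels differed 20.2-fold without cells holding Cd79b. Tags of the other library, a sign of mixed droplets, took a median of 3.07% of tag counts in Ighm-positive and 2.97% in Ighm-negative Selinexor cells. In DMSO cells they took 4.79% and 4.66%.

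The genes around Ighm were mostly immunoglobulin genes without UMIs. Within 500 kb the annotation holds 88 genes, of which 72 are immunoglobulin genes and 75 had 0 UMIs in both libraries. Ighd was the only immunoglobulin gene among them with any UMI. Of the other neighbours, only Adam6a, Adam6b, Tmem121 and Tex22 had 0 UMIs in both. Measured neighbours numbered 7 of 88, where 10393 of all 32285 genes were measured. The 7 measured neighbours all lie beyond Ighd at lower coordinates. Crip1, which encodes a small LIM-domain protein, had 4517 UMIs in Selinexor cells and 1849 in DMSO cells, a log2 ratio of 1.43. It was the 1 of 7 at least 1.5-fold higher, where 1022 of all measured genes (9.83%) were. The other 6 lay between -0.04 for Nudt14 and 0.56 for the RNA polymerase III factor gene Brf1.

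A list of factors linked to the heavy chain enhancers held 20 genes, 19 of them measured. Of these, 3 were at least 1.5-fold higher in Selinexor cells and 0 at least 1.5-fold lower, where 9.83% of all measured genes were higher and 403 (3.88%) lower. Their median log2 ratio was 0.30, against 0.13 for all measured genes. Irf8, a myeloid and B cell regulator, had 1185 Selinexor and 552 DMSO UMIs, a log2 ratio of 1.23 (1.10 to 1.40). Runx1 stood at 0.67 (0.57 to 0.77) and Irf4 at 0.65 (0.40 to 0.99). Spi1, which encodes PU.1, had -0.07, Cebpb -0.05, and the E protein genes Tcf3 and Tcf12 had 0.30 and 0.48. Among the inhibitors of E proteins, Id3 had 67 Selinexor and 23 DMSO UMIs (log2 1.25, 0.99 to 2.44), while Id1 and Id2 had -0.17 and -0.04.

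Between Ighm-positive and Ighm-negative Selinexor cells of like depth, 18 genes of that factor list had at least 100 UMIs in the library. None was at least 1.5-fold higher, and Irf4 at -0.95 and Irf8 at -1.09 were lower by that margin, where 2.13% and 2.59% of all genes tested were. Within clusters these genes stood at -0.13 and -0.02. Dendritic cells express both genes, and 3 of the 34 dendritic cell-like Selinexor cells were Ighm-positive. Of the lymphoid progenitor list, 4 of 7 genes were measured, 2 were at least 1.5-fold higher in Selinexor cells and 1 lower by that margin, where 9.83% and 3.88% of all measured genes were. Satb1, a chromatin organiser of lymphoid cells, had a log2 ratio of 1.23 (149 Selinexor and 62 DMSO UMIs) and the receptor Notch1 one of 0.65. Ly6d had 27 Selinexor and 69 DMSO UMIs in 2 and 7 cells, and Il7r, the interleukin 7 receptor, had -0.29.

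Genes that went with Ighm were sought within the Selinexor library. UMIs observed in the 950 Ighm-positive cells were set against those expected from 1017 Ighm-negative cells of the same decile of depth, for 7982 genes with at least 100 UMIs. Log2 ratios of observed over expected are on the log2(CPM + 1) scale, which draws low genes towards 0. Median depth was 8147 UMIs in positive and 1303 UMIs in negative cells, which the matching takes into account. An Ighm-negative cell may still have held the transcript uncaptured. Of these genes 170 (2.13%) reached 1.5-fold in favour of positive cells and 207 (2.59%) in favour of negative cells. When cells were matched within clusters as well, which kept 910 positive and 996 negative cells, 151 genes (1.89%) were higher and 103 genes (1.29%) lower by that margin. With depth matching alone but without cells holding Mki67 or Top2a, 357 genes were higher. The median gene stood at -0.01 with depth matching and at 0.00 within clusters.

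Among the 15 genes highest in Ighm-positive Selinexor cells were genes of neutrophil granules, of proton, zinc and potassium transport and of a chemokine. Atp6v0d2, a subunit of the vacuolar proton pump, had 413 UMIs in positive cells where 115.5 were expected, a log2 ratio of 1.77 (1.45 to 2.23). Within clusters its log2 ratio was 1.55 (1.18 to 2.02), and it was higher in 6 of the 8 clusters with at least 20 cells of each kind. Retnlg, a resistin-like protein of neutrophils, had 438 UMIs where 123.4 were expected, with 1.76 (1.44 to 2.21) at like depth and 1.69 (1.29 to 2.21) within clusters. It was higher in 5 of 8 clusters, and in the cluster with most Ighm, led by Ch25h, it stood at -0.14. Shisa4 had the highest log2 ratio, 1.90 (1.35 to 3.22), but on 93 UMIs and higher in 2 of 8 clusters. It stood at 1.66 in the cluster led by Ch25h and 0.98 in the cluster led by Hist1h1a. In the cluster led by Gpnmb it had -0.03, and in the others exactly 0. Tallies over the 8 clusters count a cluster at exactly 0, as where a gene has no UMIs, as not higher. The gelatinase gene Mmp9 had 1.25 (0.99 to 1.57) at like depth and 0.83 within clusters.

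Fam122b, which encodes a regulator of protein phosphatase 2A, also differed between the libraries, with 745 Selinexor and 83 DMSO UMIs. Its UMIs in positive cells numbered 594 where 255.1 were expected, and its log2 ratio was 1.19 (0.95 to 1.49) at like depth and 1.17 within clusters, where it was higher in 6 of 8. The chemokine gene Ccl2 stood at 1.30 (0.95 to 1.78), the potassium channel gene Kcnn3 at 1.27 (0.78 to 2.09), the zinc transporter gene Slc39a2 at 1.33 (0.84 to 2.13) and the cyclin gene Ccnd1 at 1.20 (0.85 to 1.67). For Ccnd1 the value within clusters was 0.49. Prxl2b, Kazald1, Fam43a, Mirt2, Ear6 and Ggt5 filled the list, between 1.17 and 1.41. Ggt5, a gamma-glutamyltransferase gene, was higher in 8 of 8 clusters, on 105 UMIs in the library.

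Matching within clusters brought other genes into the 15 highest. Satb1 had -0.18 (-0.70 to 0.30) at like depth and 1.13 (0.64 to 1.98) within clusters. The transcription factor gene Nfia had 0.85 and 1.11, the matrix protease gene Mmp19 had 1.09 and 0.97, and Tubgcp2 and the cation channel gene Trpm2 had 0.95 and 1.01 at like depth and 0.98 and 0.95 within clusters. All but Satb1 were thus higher by both matchings.

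The 15 genes lowest at like depth were led by genes of the dendritic cell-like cluster. Ccl5 had 57 UMIs in positive cells where 2723 were expected (log2 -5.39), and Ccl22 had 148 where 4365 were expected (-4.81). These expected counts exceed the 1526 and 2572 UMIs of the 2 genes in the library. Negative cells were scaled to the UMIs of positive cells in each decile, so a few negative cells can weigh heavily. The actin bundler Fscn1 had -4.51 and the lymph node homing receptor Ccr7 had -4.46. Ramp3, Serpinb6b, Cacnb3, Il4i1, Cd83, Car2, Nr4a3, Stat4, Gnb4, Tnfrsf9 and Tbc1d4 lay between -3.46 and -2.09. Within clusters the values were smaller, at -1.78 (-2.31 to -1.52) for Ccl5, -1.14 for Ccl22, -0.76 for Fscn1 and -0.80 for Ccr7. Ccl5 was higher in positive cells in 4 of 8 clusters and Ccl22 in 3 of 8, where clusters at exactly 0 again count as not higher. Serpinb6b stood at 0.08 (-0.63 to 0.86), Ramp3 at 0.39 (-0.30 to 1.73), Tnfrsf9 at 0.55 (-0.20 to 1.59) and Tbc1d4 at 0.45 (-0.08 to 1.08) within clusters. These intervals span 0, so the difference seen at like depth was not found there. Cacnb3, Il4i1, Cd83, Nr4a3, Stat4 and Gnb4 lay between -0.38 and -0.06 within clusters, also with intervals that span 0. Car2 stood at -0.52 (-1.08 to -0.06).

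The genes lowest within clusters were others. Besides Ccl5 and Ccl22, the 15 were Ect2, Hmmr, Kif2c, Ccnb2, Kif20a, Ckap2, Aspm, Cdc20, Depdc1a, Cenpf, Cenpe, Cep55 and Nek2. Ect2, which drives the contractile ring of dividing cells, had -1.43 (-2.01 to -1.06) and was higher in positive cells in 0 of 8 clusters. The spindle gene Hmmr had 307 UMIs at like depth where 718.0 were expected, and -1.15 (-1.40 to -0.94) within clusters. Cyclin B2 (Ccnb2) had -1.06, the kinesin gene Kif20a -1.05 (-1.44 to -0.74) and Cdc20, an activator of the anaphase-promoting complex, -0.99 (-1.32 to -0.72). Mki67 and Top2a, summed, had -0.52 (-0.59 to -0.44) at like depth and -0.29 (-0.37 to -0.21) within clusters.

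**Figure D4:**
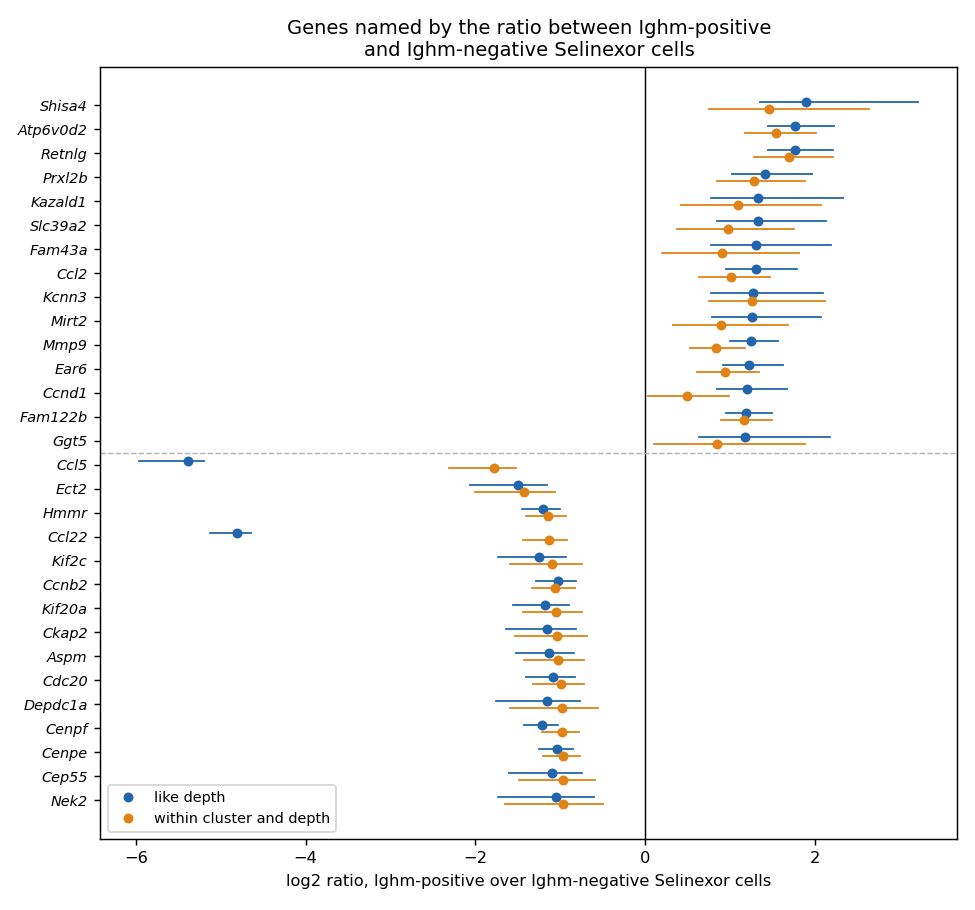
Points give the log2 ratio of Ighm-positive over Ighm-negative Selinexor cells at like depth (blue) and within cluster and depth (orange), with approximate 95% counting intervals. The upper block holds the 15 genes highest at like depth and the lower block the 15 genes lowest within clusters. Ccl5 moves from -5.39 at like depth to -1.78 within clusters, while Retnlg, Atp6v0d2, Hmmr and Ect2 keep nearly the same place.

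The number of Ighm UMIs in a cell sorted these genes further. Against cells of like depth without Ighm, the 321 cells with 1 UMI, the 321 cells with 2 to 3 UMIs and the 308 cells with 4 or more had Atp6v0d2 at log2 0.97, 1.29 and 2.44. Mmp9 stood at 0.67, 1.39 and 1.61 and Fam122b at 0.69, 1.06 and 1.56. Retnlg ran the other way, at 2.10, 1.77 and 1.39. Hmmr stood at -0.62, -0.87 and -2.38, and Mki67 with Top2a at 0.04, -0.34 and -1.29. Fn1, which encodes fibronectin, was at -0.06, 0.16 and 1.09. These groups of cells were matched on depth only, not within clusters, and the part of cluster make-up in these values was not tested.

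Marker sets of the cell states moved with Ighm as well. The 8 late neutrophil markers, summed, had a log2 ratio of 0.83 (0.79 to 0.88) in Ighm-positive over Ighm-negative Selinexor cells and 0.56 (0.51 to 0.62) within clusters. Retnlg and Mmp9 belong to this set. The 10 macrophage markers had 0.59 (0.49 to 0.69) and 0.39 (0.29 to 0.50). The 6 early neutrophil markers had 0.57 (0.50 to 0.65) at like depth and 0.11 (0.03 to 0.19) within clusters. Matched on depth only, they stood at 1.10, 1.00 and -0.70 in cells with 1, 2 to 3 and 4 or more Ighm UMIs. The 5 eosinophil markers, 2 of them at 0 in Selinexor cells, had the highest value of the marker sets, 1.18 (0.88 to 1.56) and 0.93 (0.60 to 1.32). They had 360 UMIs in positive cells where 154.8 were expected. Of these, 345 were UMIs of Ear6, where 143.1 were expected, so the value is almost wholly that of Ear6. Ear6, named above among the highest genes, was also among the leading genes of the clusters led by Ltf and by Gpnmb. Its rise alone does not show an eosinophil state. The 5 NK cell markers, 2 of them at 0 in Selinexor cells, had 69 UMIs in positive cells. Their values were 1.02 (0.41 to 2.01) at like depth and 0.37 (-0.46 to 1.31) within clusters. Nkg7, a member of this set, was among the leading genes of the early neutrophil-like cluster. Dendritic cell markers had -2.77 (-2.87 to -2.68) and -0.22 (-0.39 to -0.06). Mitochondrial transcripts stood at -0.02 and ribosomal protein transcripts at -0.06.

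In the DMSO library the 136 Ighm-positive cells, with 194 UMIs, were set against 1432 of 1607 Ighm-negative cells, those whose depth decile also held positive cells. Of 7954 genes, 314 (3.95%) were higher by that margin and 621 (7.81%) lower, on far fewer counts than in the Selinexor library. The late neutrophil markers stood at -0.59 (-0.67 to -0.51), the macrophage markers at -0.66 (-0.79 to -0.52) and the early neutrophil markers at 1.81 (1.77 to 1.86). Within clusters these values were -0.10, 0.01 and 0.07. The B cell markers had 57 UMIs in positive DMSO cells where 5.71 were expected. Atp6v0d2 had -3.33 and Retnlg -0.18 in DMSO cells.

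**Figure D5:**
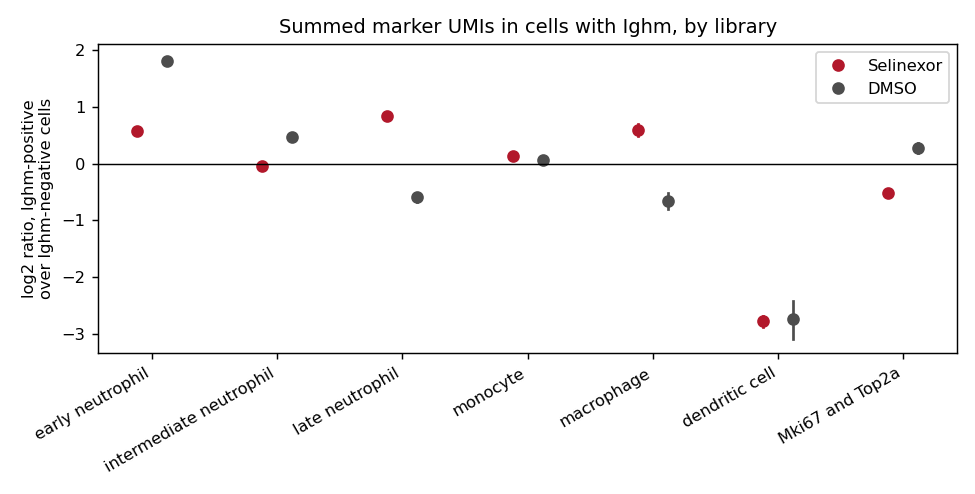
Points give the log2 ratio of summed marker UMIs in Ighm-positive over Ighm-negative cells of like depth, in Selinexor (red) and DMSO (grey), with approximate 95% counting intervals. Late neutrophil and macrophage markers lie above 0 in Selinexor cells (0.83 and 0.59) and below 0 in DMSO cells (-0.59 and -0.66), and early neutrophil markers lie above 0 in both.

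Last, genes were ranked by how closely their level followed that of Ighm over 22 groups, each 1 cluster in 1 library with at least 20 cells, as Pearson's r of log2(CPM + 1). The groups share their library, so a gene that differs between libraries gains by that alone. Slc16a6 came first with 0.91, and within the 11 Selinexor groups it had 0.91 but within the 11 DMSO groups 0.04. Msl3l2 had 0.86, the antiproliferative gene Btg3 0.85, Trim6 0.84 and Traf4 0.83. Arrdc3 followed with 0.81, Fam122b with 0.80, the lipase gene Pnpla2 with 0.79, Xpo1 with 0.75 and Gpr160 with 0.74. Within the Selinexor groups alone Btg3 had 0.82 and Arrdc3 0.70, while Xpo1 had 0.37. Within the DMSO groups alone Traf4 had 0.80, on 84 Selinexor and 20 DMSO UMIs in the libraries, and Gpr160 had 0.72. The other named genes lay there between -0.18 for Xpo1 and 0.39 for Msl3l2.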

How the data were processed

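The deposited files hold raw UMI counts of each gene in each cell. The authors made them with Cell Ranger 6.1.2 on mm10, per the submitters' processing notes. Neither the annotation release nor the rule for calling cells is given in the sources read here. The choice of Ighm, the gene lists and the marker sets were made with earlier results of these data known. Tag counts entered no gene total.

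Cells needed at least 200 detected genes, and mitochondrial UMIs had to stay under 10%, which removed 22 of 1989 Selinexor and 41 of 1784 DMSO barcodes. Doublets were not removed by a caller, since tags mark mixed cells of the 2 libraries only and a caller marked too few cells to be of use. Counts were summed per library or cluster and scaled to CPM. Log2 ratios use log2(CPM + 1), and their intervals are those of the plain ratio (exact conditional binomial). Intervals are at 95%, and the floor for a count of 0 is 3 counts. With 1 library per group no test was run.

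Clusters came from scanpy 1.11.5 and leidenalg 0.10.2 (2000 variable genes without immunoglobulin genes, 30 principal components, 15 neighbours, resolution 1.0). A cluster could take the name of a marker set when at least 3 markers were 2-fold higher on at least 10 UMIs each. Among such sets the one with the highest mean log2 ratio was taken. The name was withheld where another set had more genes among the 10 leading genes. It was also withheld in shallow clusters with no marker of the set among those genes. An unnamed cluster may thus still hold raised markers of a set. Depth matching used 10 bins of total UMIs without Ighm, or 5 bins per cluster, and was tested on simulated data. Thinned shares are exact hypergeometric expectations. Named genes are Ighm, the list members, the 15 highest and 15 lowest under each matching (without mitochondrial, ribosomal protein, haemoglobin, Gm and Rik genes), the 10 most alike in pattern and the neighbours within 500 kb. Genes outside that rule are Hmgn1 in the count over shared clusters, Fn1 and the genes that lead clusters, which were named after their values were seen. Some genes that the rule or a cluster would name are not reported here. Scaling alternatives used edgeR 4.0.16 (TMM) and DESeq2 1.42.0 (median of ratios), for factors only. Coordinates and sequences were read from the GENCODE annotation and transcripts of GRCm38.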

Additional observations from a re-analysis of the deposited data

Results flagged for a closer look

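For 3 cell type marker sets, the summed UMIs of Ighm-positive over Ighm-negative cells of like depth lay on opposite sides of 0 in the 2 libraries, with both counting intervals clear of 0. Late neutrophil markers had a log2 ratio of 0.83 in Selinexor and -0.59 in DMSO cells. Macrophage markers had 0.59 in Selinexor and -0.66 in DMSO cells, and intermediate neutrophil markers -0.04 in Selinexor and 0.47 in DMSO cells. The difference between the libraries was not tested, since each group is 1 library. Within clusters the values were 0.56 in Selinexor and -0.10 in DMSO cells for late neutrophil, 0.39 and 0.01 for macrophage, and 0.02 and -0.04 for intermediate neutrophil markers. Beside the cell type sets, Mki67 with Top2a had -0.52 in Selinexor and 0.27 in DMSO cells, mitochondrial transcripts -0.02 and 0.16, and ribosomal protein transcripts -0.06 and 0.14. Megakaryocyte markers had 0.51 in Selinexor and -0.51 in DMSO cells, on 44 and 37 UMIs in positive cells, with a Selinexor interval that spans 0 (-0.22 to 1.47). The DMSO side rests on 136 cells, and 26 of its 194 Ighm UMIs lay in cells with a light chain transcript.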

How the results depend on the processing

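Of 60 alternative values, 32 stayed within the bounds set for the reported value, 28 moved, and no log2 ratio changed sign. The log2 ratio of Ighm was 3.86 with TMM and 3.84 with median-of-ratios scaling, 4.91 without cells holding Mki67 or Top2a, 4.48 with every cell weighted equally and 4.53 thinned to 1500 UMIs. The share of cells with Ighm, thinned to 1500 UMIs, thinned to 3000 UMIs, under stricter limits on cells (at least 1000 genes, mitochondrial UMIs under 5%), and with at least 2 Ighm UMIs, was 31.6%, 40.7%, 65.9% and 32.0% in Selinexor cells. In DMSO cells it was 1.91%, 3.56%, 9.41% and 2.07%. Genes higher in Ighm-positive Selinexor cells numbered 273 with at least 2 Ighm UMIs, 278 and 44 with gene minimums of 50 and 500 UMIs and 357 without cells holding Mki67 or Top2a, against 170 as reported. Those lower numbered 103 within clusters and 41 at 500 UMIs, against 207. More genes were lower than higher as reported, and the balance turned within clusters (151 higher), at 500 UMIs and without cells holding Mki67 or Top2a (219 lower). In DMSO cells the counts were 314 and 621. At the same cell mix the log2 ratio was 4.10 at resolution 2.0, 4.36 with immunoglobulin genes left in and 4.53 with equal weight per cluster, against 4.83. The highest Selinexor level over clusters was 469.9 CPM at resolution 0.5, where intermediate neutrophil-like cells held it, 914.3 CPM with centred expression and 704.7 CPM with immunoglobulin genes left in. The lowest was 78.4 CPM at resolution 0.5, again in dendritic cell-like cells. The cause of these shifts was not tested, except that gene minimums change how many genes enter.

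Leaving out the 5% of cells with most UMIs, cells under 2000 UMIs, cells with B cell transcripts or the smallest cluster was added after seeing the data. These gave log2 ratios of 4.18, 3.91, 4.17 and 4.05. No paired analysis was possible because each group has 1 library. Depth limits the ratio in clusters with 1 DMSO UMI, whose intervals are wide.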
